A study of Mus musculus with 8 samples.

Results

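The small leucine-rich proteoglycans are secreted proteins built from leucine-rich repeats that sit on collagen fibrils and regulate how the fibrils assemble and how thick they grow. All 10 genes chosen by name, Dcn, Bgn, Aspn, Lum, Fmod, Prelp, Kera, Omd, Epyc and Ogn, were found among the 20681 genes of the table, each listed once. RNA had been sequenced from whole mouse knee joints, with 4 libraries that the labels call control and 4 that they call knockout. The knockout refers to Loxl2, which encodes lysyl oxidase-like 2, a crosslinker of collagen. Per the labels all animals were Acan-Cre;Loxl2 fl/fl, so that Cre was placed under the aggrecan gene, which is active in cartilage cells, and both Loxl2 alleles were flanked by loxP sites. The control libraries are named Vehicle_DMM_LOXL2wt and described as vehicle-treated, and the others are named KO_DMM_LOXL2ko and described as conditional knockouts. The whole joint was sequenced, while the aggrecan gene is active in few of its cell types. DMM is a common short form for surgical destabilisation of the medial meniscus, which leads to osteoarthritis, and the title names an injury model. The agent given in place of vehicle, the time after injury, the age and the sex are not stated in the labels. The labels do not say that each library came from a separate animal, so the p-values measure the spread between these libraries.

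As background, the family is divided into classes by sequence. Decorin (Dcn) carries a chondroitin or dermatan sulfate chain, biglycan (Bgn) a pair of such chains, and asporin (Aspn) an aspartate-rich stretch in their place, and these form class I. Lumican (Lum), fibromodulin (Fmod), keratocan (Kera), osteomodulin (Omd) and PRELP (Prelp) form class II, whose members mostly carry keratan sulfate or sulfated tyrosines, and epiphycan (Epyc) and osteoglycin (Ogn) belong to class III. In joints, decorin, biglycan, lumican and fibromodulin are found in tendon, ligament, meniscus, synovium and cartilage, and mice without some of them develop weak tendons or early osteoarthritis. Fibromodulin is also known to bind lysyl oxidase, a relative of the enzyme encoded by Loxl2.

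The genes lie close together on the mouse genome (build mm10, annotation GENCODE M21), and their sequences are shown first because reads of related or overlapping genes could in principle be confused. On chromosome 10, all on the plus strand, lie Dcn (97479609 to 97518143), Lum (97565128 to 97572703), Kera (97606879 to 97613692) and Epyc (97644068 to 97682454), with 30.4 to 47.0 kb between one gene and the next. On chromosome 13, also on the plus strand, lie Aspn (49544443 to 49567565), Omd (49582462 to 49592822) and Ogn (49608046 to 49624501), 14.9 and 15.2 kb apart. Chromosome 1 holds Prelp (133910304 to 133921414, minus strand) and Fmod (134037254 to 134048277, plus strand), 116 kb apart, and Bgn is alone on chromosome X (73483602 to 73495933, plus strand).

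Across the 45 pairs of members, the longest run of identical bases shared by the annotated coding sequences was 9 to 17 bases. The longest was between Dcn and Bgn. It is shown in capitals, with 15 bases on either side and positions counted from the first base of the start codon.
Dcn, coding bases 793 to 839: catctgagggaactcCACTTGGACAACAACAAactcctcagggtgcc
Bgn, coding bases 835 to 881: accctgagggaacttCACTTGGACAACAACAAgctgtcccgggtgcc
Runs of exact identity were measured, and longer stretches with mismatches were not counted. Overlap with other genes was a further source of uncertainty, since the use of strand in counting is not given in the sources used here. Aspn, Omd and Ogn lie inside Cenpp, a centromere protein gene on the opposite strand, and share 7, 0 and 0 exon bases with it. Prelp shares 350 exon bases (9.68% of its own) with the antisense gene Gm15851, and Epyc shares 1041 (40.6%) with the non-coding gene Gm10754.

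For 8 of the 10 members the RefSeq promoter table (build GRCm38.p6) held an entry, and the 250 bases before the start were searched on both strands for short motifs. The promoters of Aspn and Ogn, the outer genes of the chromosome 13 group, which both rose, and of Fmod and Prelp, of which the first rose and the second was not called, are printed. Capitals mark matches to TATAAA (the TATA box), CCAAT (the CCAAT box), GGAATG (the core bound by TEAD factors) or TGTGGT (bound by RUNX factors).
Aspn, chr13:49544193-49544442, plus strand: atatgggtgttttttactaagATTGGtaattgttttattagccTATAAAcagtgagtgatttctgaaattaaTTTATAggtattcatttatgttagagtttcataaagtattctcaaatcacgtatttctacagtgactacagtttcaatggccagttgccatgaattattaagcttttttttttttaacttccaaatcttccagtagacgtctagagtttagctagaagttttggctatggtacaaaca
Ogn, chr13:49607765-49608014, plus strand: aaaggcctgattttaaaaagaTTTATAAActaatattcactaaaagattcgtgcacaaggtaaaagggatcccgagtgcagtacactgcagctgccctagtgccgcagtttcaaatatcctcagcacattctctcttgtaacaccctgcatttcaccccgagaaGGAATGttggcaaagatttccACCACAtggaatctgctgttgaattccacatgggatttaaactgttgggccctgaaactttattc
Fmod, chr1:134037004-134037253, plus strand: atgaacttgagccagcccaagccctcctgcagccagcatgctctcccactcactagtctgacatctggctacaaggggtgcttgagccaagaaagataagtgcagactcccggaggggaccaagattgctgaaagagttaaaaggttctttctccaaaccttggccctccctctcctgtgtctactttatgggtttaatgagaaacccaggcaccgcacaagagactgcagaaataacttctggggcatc
Prelp, chr1:133921402-133921651, minus strand: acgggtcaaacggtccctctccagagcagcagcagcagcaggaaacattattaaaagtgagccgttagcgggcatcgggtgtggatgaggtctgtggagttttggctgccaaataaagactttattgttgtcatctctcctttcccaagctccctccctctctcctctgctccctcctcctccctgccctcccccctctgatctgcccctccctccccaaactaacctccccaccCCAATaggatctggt
TATAAA was found in the Aspn and Ogn windows, against 12.3% of the 32544 promoters in the table, and in Ogn its matches on the 2 strands overlapped each other. CCAAT was found in the windows of Aspn, Kera and Prelp (33.8% of all promoters), and GGAATG (12.6%) and TGTGGT (13.96%) in Ogn only. TGANTCA, the AP-1 motif (6.73%), and CAGACA, a SMAD-type motif (17.0%), had no match among the 8. Matches to GGGCGG (33.0%; Bgn) and CANNTG (66.2%; Aspn, Bgn, Fmod and Ogn) are not capitalised. The base composition ranged widely, from 30.0% G and C in Aspn to 64.4% in Bgn, around a median of 52.4% over all promoters. These matches are descriptions of letters and were not tested for use.

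The libraries held 13991000 to 17411617 reads assigned to genes. Values are normalised read counts, that is, reads divided by 1 size factor per library. Differences are those of the libraries labelled knockout minus those labelled control on the log2(value + 1) scale, with standard errors and adjusted p-values from limma fitted over 14949 genes (those that reached 10 normalised counts in 4 or more of the 8 libraries). A gene was called at an adjusted p under 0.05. Loxl2, the check of the labels, had normalised counts of 282, 349, 1135 and 311 in the control libraries, in order of replicate number, and of 893, 1468, 960 and 1518 in the libraries labelled knockout. Its transcript thus had a higher mean under the knockout label (log2 difference 1.44, SE 0.40, limma adjusted p = 0.0294, exact two-sided permutation p = 0.0857), against the direction of the label, and control replicate 3 stood with the libraries labelled knockout. Leaving out any one of 5 libraries (control replicates 1, 2 and 4, and those labelled knockout 2 and 4) ended the call of Loxl2, with limma adjusted p-values of 0.0666 to 0.0849. The call was also lost with edgeR (adjusted p = 0.0669), DESeq2 (adjusted p = 0.0659) and in fits that hold a score of muscle or fibroblast markers constant. The count covers the whole gene and all cells of the joint, so it cannot decide whether Loxl2 was lost in cartilage cells or whether the labels are right. The groups are therefore named by their labels throughout.

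Most of the family rose in the group labelled knockout. Epyc was too low to test, and of the 9 members tested, 6 (Lum, Omd, Ogn, Aspn, Fmod and Dcn) rose, 0 fell, and Bgn, Kera and Prelp were not called. Over all genes tested, 23.2% were called, 11.6% higher and 11.6% lower. The median log2 difference of the 9 members was 1.51, against 0.00 over all genes tested. For 3 members, Fmod, Omd and Ogn, the groups did not overlap, and over all genes tested 11.7% were higher with no overlap. Library by library, the 10 genes together summed to 15534, 17060, 36601 and 14855 normalised counts in the control libraries and to 46672, 59333, 30943 and 63940 in the libraries labelled knockout. That was 0.127 ± 0.0654% of a control library (SD, n = 4) and 0.363 ± 0.123% of a library labelled knockout. Control replicate 3 lay above knockout replicate 3, and the other 3 control libraries lay below all others.

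**Figure D1:**
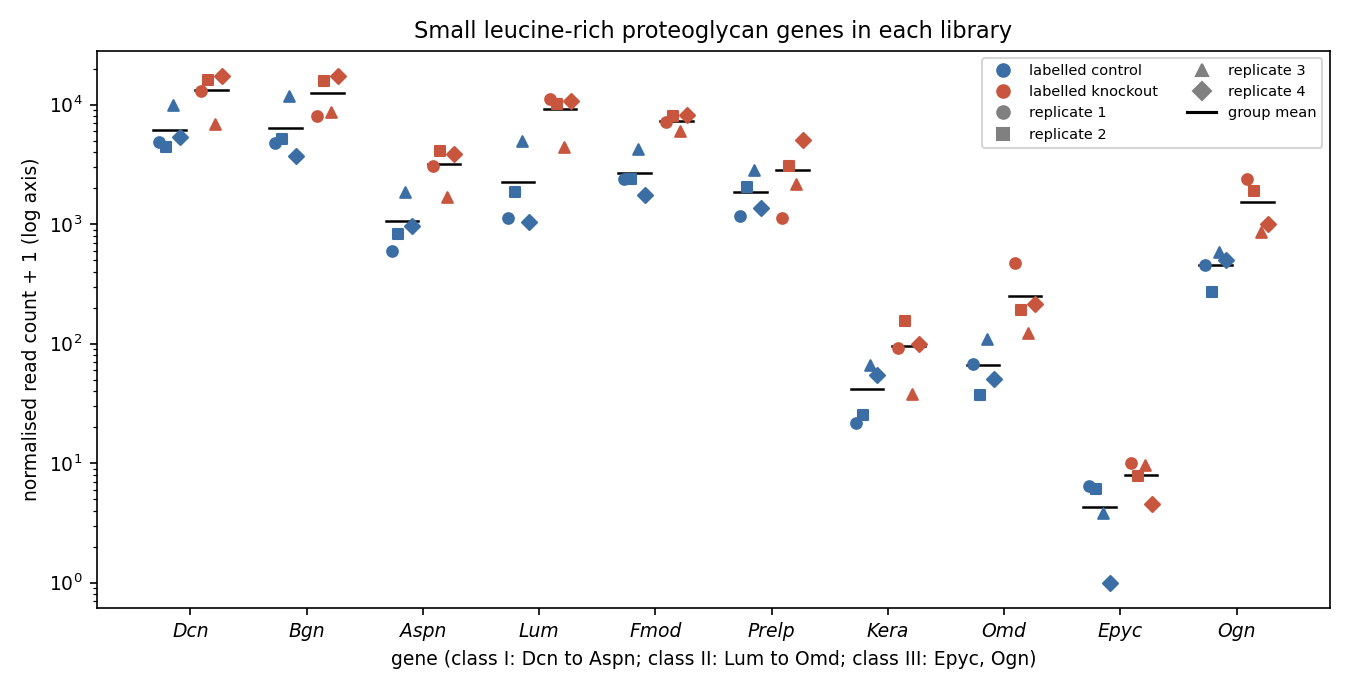
Normalised read count plus 1 (log axis) of each of the 10 genes in every library, by label (colour) and replicate number (marker shape), with the group means as bars. Control replicate 3 was the highest control library for 9 of the 10 genes, and knockout replicate 3 the lowest of its group for 7.

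The class I gene Dcn had the highest mean of the family per kilobase of its longest protein-coding transcript, as given further on. Its normalised count was 4910, 4463, 9958 and 5384 in the control libraries, by replicate number, and 13075, 16028, 6875 and 17373 in those labelled knockout. The groups overlapped in knockout replicate 3, which lay below control replicate 3. Dcn rose 2.15-fold (log2 difference 1.10, SE 0.32, limma adjusted p = 0.0338, exact permutation p = 0.0571). This call was fragile, since it was lost when any one of 6 libraries was left out (control replicates 1, 2 and 4 and knockout replicates 1, 2 and 4), with limma adjusted p-values of 0.0707 to 0.0968 and differences of 0.95 to 1.08.

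Bgn, whose protein also acts as a danger signal through Toll-like receptors, had normalised counts in the same range as Dcn. It stood at 4772, 5148, 11932 and 3737 in the control libraries and at 8068, 15660, 8685 and 17328 in those labelled knockout. Both Bgn values of knockout replicates 1 and 3 were under that of control replicate 3. The log2 difference of 1.03 (SE 0.37, 95% interval 0.21 to 1.85) was not called (limma adjusted p = 0.0678, exact permutation p = 0.0857). With 1 library left out the difference ranged from 0.82 (without control replicate 4, limma adjusted p = 0.162) to 1.38, and it was called only without control replicate 3 (limma adjusted p = 0.0105).

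Aspn, which encodes a protein that binds collagen and transforming growth factor beta, counted 595, 820, 1857 and 957 in the control libraries and 3056, 4099, 1689 and 3887 in those labelled knockout. Again only knockout replicate 3 fell within the control range. Aspn rose 3.12-fold (log2 difference 1.64, SE 0.36, limma adjusted p = 0.0129, exact permutation p = 0.0571). It remained called whichever library was left out, with differences of 1.41 to 1.96.

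Lum had the largest difference of the 9 tested members. Lumican, which limits fibril thickness, counted 1124, 1860, 4979 and 1038 in the control libraries and 11260, 10141, 4425 and 10773 in those labelled knockout. The lowest value labelled knockout, in replicate 3, lay just under the highest control value, also in replicate 3. Lum rose 4.73-fold (log2 difference 2.24, SE 0.48, limma adjusted p = 0.0120, exact permutation p = 0.0571), with differences of 1.98 to 2.73 when 1 library was left out.

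Fmod, whose protein competes with lumican for a site on collagen I, had the smallest standard error of the 9 tested members. It counted 2411, 2376, 4279 and 1760 in the control libraries and 7124, 8097, 6060 and 8177 in those labelled knockout. The groups did not overlap. Fmod rose 2.85-fold (log2 difference 1.51, SE 0.23, limma adjusted p = 0.00462, exact permutation p = 0.0286, the smallest this design can give), and its adjusted p was the lowest of the 9 members tested.

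Omd, the gene of a keratan sulfate proteoglycan of mineralised matrix, was far less abundant. It counted 67.1, 36.3, 107 and 49.3 in the control libraries and 475, 192, 123 and 214 in those labelled knockout. The groups were apart, and knockout replicate 1 was the highest. Omd rose 3.64-fold (log2 difference 1.86, SE 0.42, limma adjusted p = 0.0147, exact permutation p = 0.0286).

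Prelp, which encodes a protein that anchors basement membranes to connective tissue, had the smallest difference of the tested members. It counted 1178, 2058, 2833 and 1375 in the control libraries and 1136, 3065, 2179 and 5088 in those labelled knockout. The lowest of the 8 values was in knockout replicate 1 and the highest in knockout replicate 4. The log2 difference was 0.51 (SE 0.42, limma adjusted p = 0.408, exact permutation p = 0.400), with a 95% interval from -0.43 to 1.45 that includes differences as large as that of Dcn. Leaving out 1 library moved it to between 0.16 (knockout replicate 4 left out) and 0.89 (knockout replicate 1 left out), with 0.32 when control replicate 1 was dropped, and none of the 8 such fits called it (limma adjusted p = 0.106 to 0.800).

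Kera, best known from the cornea, was detected at low counts. It stood at 20.5, 24.2, 65.4 and 53.7 in the control libraries and 91.8, 154, 37.0 and 98.6 in those labelled knockout, with knockout replicate 3 inside the control range. The log2 difference of 1.196 (SE 0.48, 95% interval 0.12 to 2.27) missed the threshold (limma adjusted p = 0.0971, exact permutation p = 0.114). With 1 library left out it ranged from 0.91 (without knockout replicate 2, limma adjusted p = 0.226) to 1.59, and Kera was called only without knockout replicate 3 (limma adjusted p = 0.0266).

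In class III, Ogn rose with its groups apart. Osteoglycin, also called mimecan, counted 451, 270, 587 and 501 in the control libraries and 2379, 1890, 861 and 997 in those labelled knockout. The rise was 3.22-fold (log2 difference 1.69, SE 0.34, limma adjusted p = 0.0101, exact permutation p = 0.0286). Knockout replicates 1 and 2 held the highest values of Ogn, while for Dcn and Bgn they were replicates 2 and 4. Epyc, a proteoglycan gene of growth plate cartilage, was near the limit of detection. It had 5, 5, 3 and 0 reads in the control libraries and 9, 8, 8 and 4 in those labelled knockout, and the count of 0 among 15356843 reads allows up to 3 reads. It entered no test, and intervals and limits from such counts cover counting error only.

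**Figure D2:**
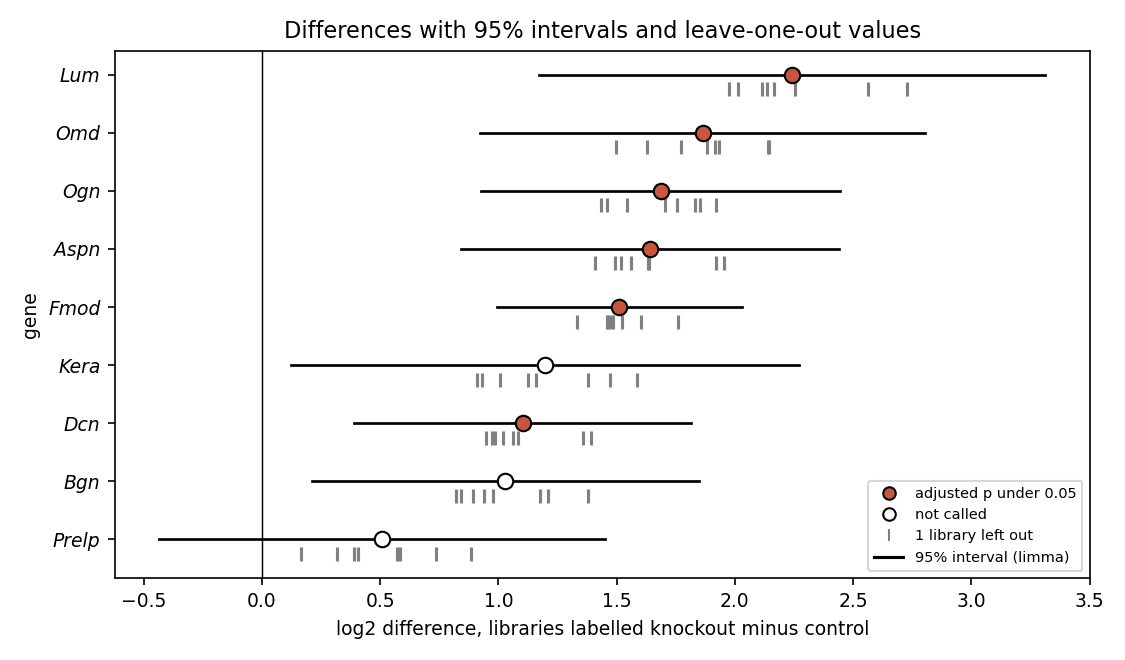
Log2 differences of the 9 tested genes (libraries labelled knockout minus control) with 95% limma intervals, filled where the adjusted p was under 0.05, and the values with 1 library left out as grey ticks. All differences lay above 0, from 0.51 for Prelp to 2.24 for Lum, and the interval of Prelp alone reached below 0.

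The pattern across libraries was shared by many members but not by all. Among the control libraries, replicate 3 was highest for 9 of 10 genes, and among the libraries labelled knockout replicate 3 was lowest for 7 of 10. The exceptions among the latter were Bgn and Prelp, lowest in replicate 1, and Epyc, lowest in replicate 4. Among the fibroblast, chondrocyte, osteoblast and tendon markers, only the summed fibroblast markers followed this pattern. It was not particular to them. The sums of the collagen, chain enzyme, protease and receptor lists described further on followed it too, while that of the further genes of the repeat family did not. Chondrocyte and osteoblast sums were highest among the controls in replicate 1 (3627 and 7336). The tendon sum was lowest of its group in knockout replicate 1 (3554). The summed count of 6 fibroblast markers was 3221, 2656, 5611 and 2765 in the control libraries and 6023, 9617, 4638 and 9480 in the libraries labelled knockout, so it too was highest in control replicate 3 and lowest of its group in knockout replicate 3. Of those 6 markers 3 rose (Pdgfra, Pdgfrb and Fap) and none was at 0 in all libraries. The part of these cells in the results was not tested beyond a fit with the fibroblast score as a covariate, which called 0 genes and left differences of 1.22 for Ogn and Omd, 0.91 for Lum, 0.81 for Fmod, 0.52 for Aspn and 0.02 for Dcn. The group difference made up 59.3% of the variance of the fibroblast score. In a whole joint, more cells of a type and more RNA per cell cannot be told apart.

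Other markers differed between the groups as well. The summed count of 8 skeletal muscle markers ranged from 1835950 to 1988050 in the control libraries and from 823930 to 1261090 in those labelled knockout, with 4 of 8 called lower and 0 higher. All 5 macrophage markers rose (summed 1012 to 2204 against 3532 to 5021), and so did 3 of 4 tendon markers (1899 to 4134 against 3554 to 10636) and 3 of 7 osteoblast markers (1066 to 7336 against 6030 to 12311). Of 8 chondrocyte markers 1 was called, and their sum ranged from 519 to 3627 in the control libraries and from 1349 to 2367 in the others. Acan, the gene of the promoter that drives Cre, was present at 221 ± 222 and 286 ± 93.3 (SD, n = 4 each; limma adjusted p = 0.326). Col2a1, the main collagen of cartilage, stood at 1045 ± 1143 and 1165 ± 372 (SD, n = 4 each; limma adjusted p = 0.441). Tnmd, a tendon marker, rose from 74.6 ± 33.2 to 228 ± 170 (limma adjusted p = 0.0412). Bglap, the osteocalcin gene, was 461 ± 474 and 850 ± 402 (limma adjusted p = 0.171), and Acta1, the muscle actin, 403793 ± 32480 and 253117 ± 42374 (limma adjusted p = 0.0934). No endothelial, adipocyte, erythroid or neutrophil marker was called, and the median log2 difference of the 5 erythroid markers was -1.91. With the muscle score as a covariate 0 genes were called in all, and the differences ranged from -1.93 (Prelp) to 2.40 (Ogn). The group difference made up 86.2% of that score's variance.

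**Figure D3:**
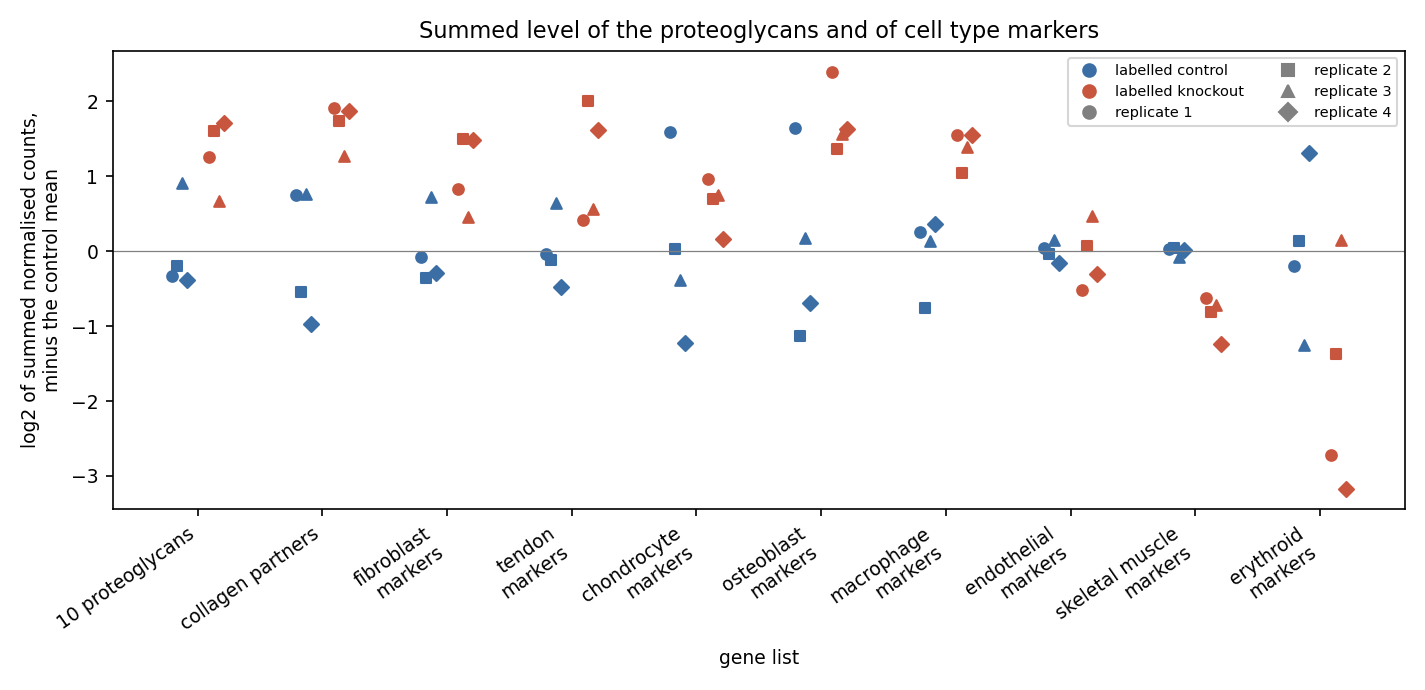
Log2 of the summed normalised count of each gene list in every library, minus the mean of the control libraries, by label (colour) and replicate number (marker shape). The 10 proteoglycans and the collagen, fibroblast, tendon and endothelial lists were highest among controls in replicate 3. Muscle markers were lower in each of the 4 libraries labelled knockout than in all 4 controls.

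To compare levels between members, counts were divided by the length of the longest annotated protein-coding transcript. The order depends on this choice. That length was 1758 bases for Dcn and 2419 for Bgn, while all their annotated exons together cover 5838 and 6099. For Lum both lengths were 2448, so the exon lengths would lower Dcn and Bgn against Lum. Per kilobase, the control libraries held 3515 ± 1449 normalised counts of Dcn and 2645 ± 1545 of Bgn (SD, n = 4 each). Lum (919 ± 758), Fmod (867 ± 349), Prelp (515 ± 207) and Aspn (454 ± 238) followed, then Ogn (176 ± 52.2), Omd (28.9 ± 13.8), Kera (17.97 ± 9.67) and Epyc (1.31 ± 0.982). Only 3 steps of this order, from Aspn to Ogn, from Ogn to Omd and from Kera to Epyc, separated genes whose ranges did not overlap. In the libraries labelled knockout the order was the same but for Aspn (1367 ± 469), whose mean was above that of Prelp (793 ± 464), with overlapping ranges.

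With the longest protein-coding transcript as the length, lumican made up a larger share of the family in the libraries labelled knockout. Of the summed counts per kilobase, Lum made up 9.11 ± 3.08% in the control libraries (6.40 to 12.8%) and 17.1 ± 3.72% in those labelled knockout (13.9 to 22.5%), with no overlap. Dcn made up 39.5 ± 5.24% and 34.4 ± 2.87%, Bgn 28.2 ± 3.37% and 23.7 ± 5.06%, and Fmod 9.76 ± 1.41% and 11.4 ± 2.47%, each with overlapping ranges (SD, n = 4 throughout). Prelp went from 5.83 ± 1.42% (4.79 to 7.86%) to 3.64 ± 1.60% (1.54 to 5.09%), also with overlapping ranges. These shares are given as a description, without a test, and they depend on the same choice of length. The lack of overlap for Lum is given for this length only and need not hold with the exon lengths.

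**Figure D4:**
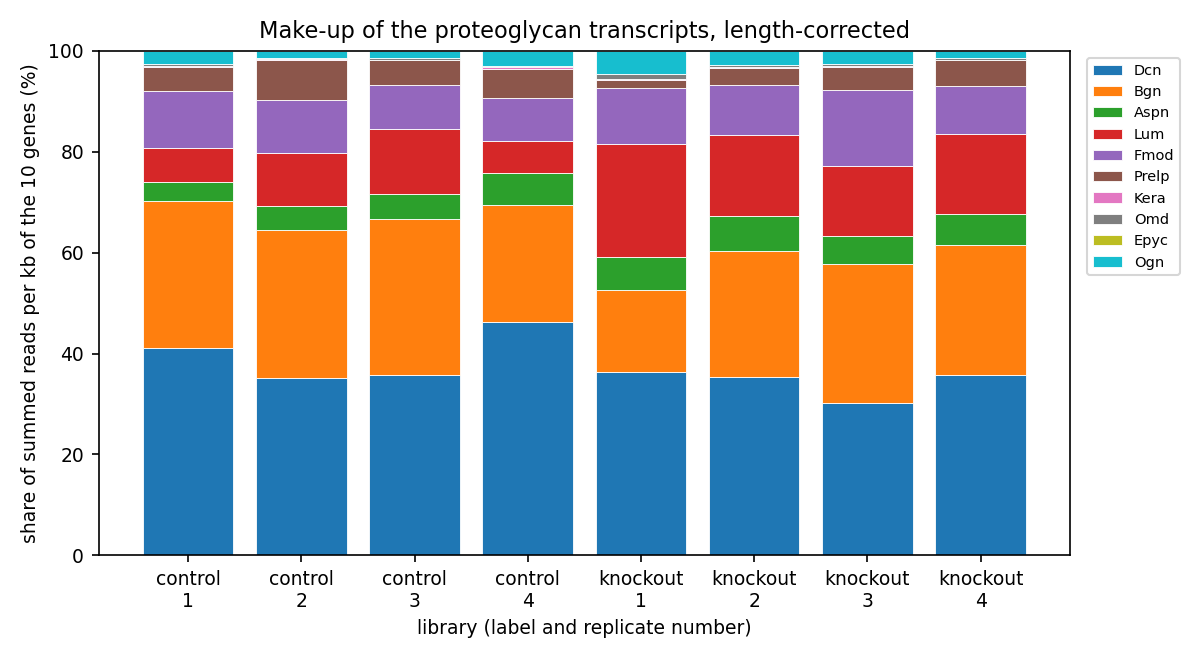
Share of each gene in the summed reads per kilobase of the 10 genes (%), 1 bar per library. With the longest protein-coding transcript as the length, Dcn and Bgn together formed the largest part in every library. The share of Lum was 6.40 to 12.8% in the control libraries and 13.9 to 22.5% in those labelled knockout.

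Ratios inside a library do not depend on how the library was scaled, so 11 pairs were compared by exact two-sided permutation tests. The smallest p this exact test can give here is 0.0286. After Benjamini-Hochberg adjustment over the 11 pairs, no pair could pass 0.05 unless most of them reached that value. That 0 passed therefore does not show that the genes moved equally. Of the 11 pairs, 1 had an unadjusted p under 0.05. That pair was Aspn over Dcn, whose log2 ratio was -3.04, -2.44, -2.42 and -2.49 in the control libraries and -2.10, -1.97, -2.02 and -2.16 in those labelled knockout. The groups did not overlap, and the difference was 0.54 (SE 0.15, exact permutation p = 0.0286, adjusted p = 0.236). Without control replicate 1, the lowest of them, the difference was 0.39. For Prelp over its neighbour Fmod the ratio was different by -1.004 (SE 0.44, exact permutation p = 0.0571, adjusted p = 0.236), and without knockout replicate 1 by -0.64. Fmod over Lum differed by -0.73 (SE 0.37) and Kera over Lum by -1.05 (SE 0.51), each with an exact permutation p of 0.0857 and an adjusted p of 0.236, and Kera over Lum was -0.598 without control replicate 4. For the class I paralogues Bgn and Dcn no difference in ratio was detected, with a mean log2 ratio of -0.03 ± 0.36 and -0.10 ± 0.43 (SD, n = 4 each; exact permutation p = 0.743, adjusted p = 0.849). Ogn over Omd differed by -0.18 (SE 0.31, exact permutation p = 0.514, adjusted p = 0.808), and Epyc over Dcn by 0.03 (SE 0.87, exact permutation p = 0.943) on very few reads of Epyc.

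**Figure D5:**
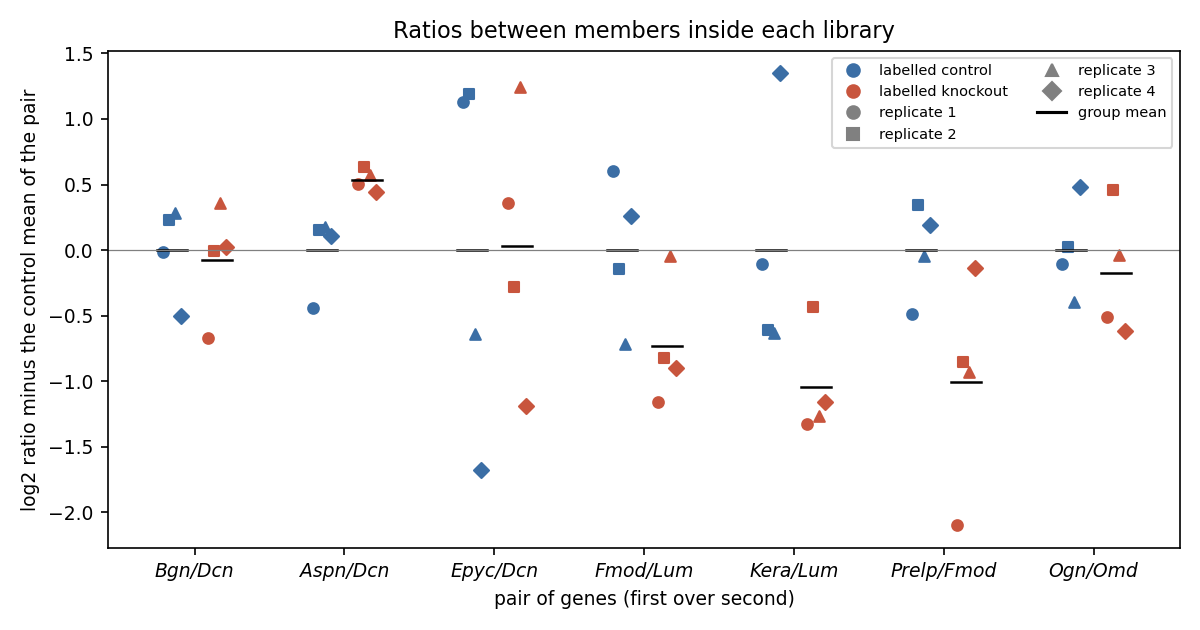
Log2 ratio between 2 members in every library, minus the control mean of that pair, by label (colour) and replicate number (marker shape), with group means as bars. Only for Aspn over Dcn did the groups not overlap, with a difference of 0.54.

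Collagen I, the main partner of these proteins, rose too. Col1a1 counted 28784 ± 21107 in the control libraries and 76510 ± 12926 in those labelled knockout (SD, n = 4 each), a log2 difference of 1.68 with an SE of 0.43 (limma adjusted p = 0.0214). Against Col1a1, Fmod differed by -0.17 (SE 0.49, exact permutation p = 0.771), Lum by 0.57 (SE 0.74, p = 0.686 by the same exact permutation test), Dcn by -0.57 (SE 0.58, exact permutation p = 0.343) and Bgn by -0.65 (SE 0.63, exact permutation p = 0.286). The adjusted p-values were 0.629 to 0.849. Without control replicate 1 the differences were -0.63 for Fmod, -0.096 for Lum, -1.09 for Dcn and -1.17 for Bgn. Its log2 ratio of Dcn to Col1a1 was -3.56, and the other control libraries lay between -1.61 and -1.32.

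Genes that work with the family were followed through lists. Of 8 further genes of the same repeat family 6 were tested, and Podnl1 (podocan-like 1, 2.26), Tsku (tsukushi, 1.12) and Ecm2 (0.82), which lies beside Aspn, rose by the log2 differences given, while 0 fell. Chad, the chondroadherin gene of cartilage, was not called (0.46, limma adjusted p = 0.275). The host gene Cenpp, at 20.4 ± 8.36 and 17.8 ± 8.01, was not called either (-0.21, limma adjusted p = 0.739), while the 3 members that lie inside it rose.

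Of 14 collagen genes whose fibrils the proteoglycans bind, or which sit beside them, 10 rose and 0 fell (median log2 difference 1.67). Col12a1 (2.86), Col5a1 (1.96) and Col11a1 (2.17) had the smallest p-values of the list (limma adjusted p = 0.00397 to 0.0144). Col2a1, Col11a2, Col5a3 and Col14a1 were not called.

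The sugar chains are built by a series of enzymes. Of the 20 tested enzymes of the linker and of chondroitin and dermatan sulfate, 10 rose and 0 fell (median 0.54). Dse, which converts chondroitin to dermatan sulfate, rose by a log2 of 1.305, and the chain polymerase genes Chpf and Chsy1 by 1.33 and 1.09. Among the first steps of the chain, Xylt2 rose by 0.43 (limma adjusted p = 0.0405) while Xylt1 (0.30), B4galt7 (0.30), B3galt6 (0.30), B3gat3 (-0.12) and Fam20b (-0.35) were not called. Of 6 tested enzymes of keratan sulfate and tyrosine sulfation 4 rose, among them the sulfotransferase genes Chst2 (1.18) and Tpst1 (0.71) and the galactosyltransferase gene B4galt1 (0.66).

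Proteases that cut or mature these proteins, listed together with the enhancer genes Pcolce and Pcolce2, rose in 7 of 11 tested cases, with 0 lower (median 1.59). Mmp14, a membrane collagenase, rose by 2.28, Adamts4, an aggrecanase, by 2.33 at a mean of 25.4 and 116 counts, and Pcolce, the enhancer of procollagen C-proteinase, by 1.32. Bmp1, the proteinase that removes the propeptide of biglycan, rose by 1.18 (limma adjusted p = 0.0201). Of 20 listed genes of ligands and receptors linked to decorin or biglycan, among them the receptors of transforming growth factor beta, 11 rose and 0 fell (median 0.75). Lrp1, an endocytic receptor of decorin, rose by 1.29, Cd14, a co-receptor used by biglycan, by 1.17, and P2rx7, a receptor linked to biglycan signalling, by 1.09. Tlr2 (1.03, limma adjusted p = 0.0566) and Tlr4 (0.46, limma adjusted p = 0.122) were not called, and Tgfb1 rose by 0.99 (limma adjusted p = 0.0184). Macrophage markers rose in the same libraries, and their part in the receptor genes was not tested.

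For 8 of the tested members, the gene with the most similar group-centred values over the 8 libraries was looked up. The search covered 11637 genes with a mean of at least 50 and left out the members themselves. These were Jkamp for Dcn (Pearson r = 0.987, Spearman rho = 0.952), Col5a3 for Bgn (0.988 and 0.929) and Tug1 for Aspn (0.993 and 1). Clu was the closest to Lum (0.989 and 1) and Ctsh to Fmod (0.988 and 0.929). Camsap2 was the closest to Kera (0.990 and 0.976), Fnbp1l to Omd (0.977 and 0.976) and Odf3l2 to Ogn (0.959 and 0.881). Each is the highest of 11637 correlations between genes measured in the same 8 libraries, so no p-value is given. No 2 of these 8 members had the same closest gene, which does not show that they behaved differently. Between these 8 members, the same Pearson r ranged from 0.093 (Bgn and Ogn) to 0.942 (Dcn and Aspn).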

How the data were processed

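Whole-joint RNA was captured on poly-T beads, per the labels' protocols, and sequenced in 8 libraries. Per the labels' design text, the authors normalised with DESeq2. The submitters' processing notes name HISAT2, featureCounts and the build mm10. Versions, annotation and strand use are not given in the sources used here. The deposited values are a normalised signal, 1 per gene and library. Every value lay within 0.05 of a whole multiple of its column's smallest value (100% in each of 8 columns), which gave back the reads, 13991000 to 17411617 per library. In control replicate 2 and knockout replicate 1 that step was 1.01 and 0.997, so low values alone show it weakly there.

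Genes that reached 10 normalised counts in 4 or more libraries were tested with limma 3.58.1 (R 4.3.3) on log2(value + 1), with group as the only term, an intensity trend and Benjamini-Hochberg adjustment over 14949 genes. edgeR 4.0.16 called 3324 genes and DESeq2 1.42.0 called 4125 on the recovered reads, against 3461 by limma. Single values were compared by exact permutation over 70 assignments. The fits were tested on simulated data. Members and gene lists were chosen with earlier results of these data known. Named genes are the members, Loxl2, at most 3 genes of smallest p per partner list and those of a pair, the gene most like each member (that for Prelp is not reported here), and the markers Acan, Col2a1, Tnmd, Bglap and Acta1; others given by value were chosen after their values were seen. Per-kilobase levels use GENCODE M21, to which 20481 of 20681 rows matched by symbol. Promoters are from RefSeq (GRCm38.p6). Value columns that matched no sample numbered 0. The labels give no batch or date.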

Additional observations from a re-analysis of the deposited data

Results flagged for a closer look

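In groups of 4 libraries, 114 groups of values were examined for a library that stood apart from the other 3, and 11 did; chance gives about 1 group in 20. Control replicate 3 was the one in 5 cases, all high. They were Dcn (9958, others 4463 to 5384), the sum of the 10 members (36601, others 14855 to 17060), Loxl2 (1135, others 282 to 349), Col5a3 (2628, others 652 to 920) and B4galt1 (1078, others 679 to 700). Knockout replicate 3 stood apart low for Lum (4425, others 10141 to 11260). Control replicate 1 stood apart for the log2 ratio of Aspn to Dcn (-3.04, others -2.49 to -2.42), for that of Dcn to Col1a1 (-3.56, others -1.61 to -1.32) and for Col11a1 (821, others 133 to 246). Col12a1 was high in knockout replicate 1 (8266, others 4669 to 4783), and Tnmd in knockout replicate 2 (482, others 129 to 155).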

How the results depend on the processing

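The 6 calls among the members did not change in number under another pseudocount (0.1 or 10), no filter, TMM scaling, median-of-ratios scaling without muscle, blood and the 50 highest genes, or edgeR. There were 7 under quantile normalisation, DESeq2 and scaling to the total of the genes left after that removal (added after seeing the data), which moved the median of all genes to 0.15 and the split of calls to 2724 higher and 776 lower, against 1732 and 1729. The added member was Bgn under both scalings and Kera under DESeq2. With 1 library left out the members called numbered 5 to 7 and the genes called 1751 to 3841. The lowest were without knockout replicate 4 (1751), control replicate 2 (1887) and control replicate 4 (2194).

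The labels do not say whether the replicate numbers pair the libraries. The centred values of same-numbered libraries correlated at -0.23 to 0.21, and not every library correlated best with its own number. Such correlations cannot decide whether same-numbered libraries share an origin. With a replicate block 2018 genes and 5 members were called, without Dcn (limma adjusted p = 0.0878) and without a call of Loxl2 (limma adjusted p = 0.0513), and Fmod had an adjusted p of 0.0210. For the ratios, the paired sign-flip test of the replicate block gave adjusted p-values of 0.55 for Aspn over Dcn and up to 1, but with 4 pairs its smallest unadjusted p is 0.125, so no ratio could pass 0.05. With the muscle or the fibroblast score as a covariate (the latter added after seeing the data) 0 genes and 0 members were called, and 587 and 1956 genes had an unadjusted p under 0.05. The muscle covariate turned Dcn to -0.15, Bgn to -0.51 and Prelp to -1.93, and the fibroblast covariate turned Bgn to -0.23, Prelp to -0.56 and Kera to -0.059. The cause was not tested. Leaving out 1 library, the ratios ranged from -0.24 to 0.13 for Bgn over Dcn, -0.53 to 0.44 for Epyc over Dcn (-0.74 with a pseudocount of 10), -0.63 to 0.077 for Fmod over Col1a1 and -0.10 to 0.93 for Lum over Col1a1, each with a change of sign. Read depth left Epyc, with 0 to 9 reads per library, below the filter, and Kera had 19 to 180 reads.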
